A study of Rattus norvegicus with 20 samples.

Results

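The genes described here are 36 genes of NF-kB signalling, chemokines, inflammatory cytokines, their receptors and the inflammasome, named as a list and looked up by symbol in the platform annotation of a rat expression array. A gene counted as measured when a probe set carried its symbol and no other, and 34 of the 36 did, each with 1 probe set, among 18166 genes of the series. Tnfaip3 and Traf1 were not analysed here. The series measured total RNA of INS-1 cells, a rat insulinoma line used as a beta cell model, on 20 Rat Gene 2.0 arrays, 5 for each of 4 title words. Cells had been kept as 5 separate clones for 10 passages, were plated for about 48 h and were then treated for 10 h. The design names IAPP with C4BP, C4BP without IAPP, IAPP alone and the solvent DMSO at 1% as the 4 conditions, with monomeric IAPP at 77 uM and C4BP at 0.6 uM, or 300 ug/ml of each in the sample fields. The titles use the words C4BP, C4BPD, IAPP and DMSO without spelling out the first pair. C4BP is read here as C4BP together with IAPP and C4BPD as C4BP without IAPP, and the groups are called by their title words throughout. Each title begins with a running number and ends in a number from 1 to 5, and title number means the last one here. All groups share the cell line, and nothing in the labels ties a given title number to a given clone, so the p-values below measure the spread between these arrays.

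NF-kB is a family of dimeric transcription factors built from the products of Nfkb1, Nfkb2, Rel, Rela and Relb. In resting cells IkB proteins hold the dimers in the cytoplasm, and signals from the interleukin 1 receptor, Toll-like receptors or TNF receptors release them, after which they switch on chemokines, adhesion molecules, cytokines and their own inhibitors. A second, slower branch cleaves the Nfkb2 product p100 to p52, which pairs with RelB. In pancreatic islets, interleukin 1 acting through NF-kB is known to raise Nos2 and chemokines and to harm beta cells, and aggregated IAPP is known from macrophages as a trigger of the NLRP3 inflammasome, the complex that processes pro-interleukin 1 beta. IAPP, also called amylin, is a beta cell hormone that forms amyloid, and C4BP is a plasma inhibitor of complement.

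The labels disagree among themselves. The treatment field of a sample names the same group as its title in 3 of the 20 arrays, and among the 10 arrays with IAPP or DMSO as title word it does so in 2. Titles were used for all results below. With the groups taken from the treatment field, limma called 0 of 18166 genes in any comparison, and between 0 and 4 of the 34 per comparison were at an unadjusted p under 0.05. The array medians lay between 171 and 183 intensity units. Beta cell markers were all bright: none of the 12 measured was dim, with Chga, Iapp and Slc2a2 the brightest. Of these 12, limma called 4 lower in C4BP and 2 lower in IAPP than in DMSO, the comparisons in which Il1r1 fell. Of all genes, 5.96% and 3.38% passed in those comparisons. In C4BP against C4BPD, where Il1r1 did not pass, 1 of the 12 was called lower, against 2.37% of all genes. The part of these markers in the results below was not tested. In RNA of whole wells, fewer cells of a type and less RNA per cell cannot be told apart. Of 17 macrophage and leukocyte markers 16 were dim, and C1qa was the exception at 398 intensity units averaged over 20 arrays. limma called none of the 17 in any comparison, and 0 to 3 per comparison were at an unadjusted p under 0.05. Their summed intensity ran from 2043 to 2266 in C4BP, 1987 to 2142 in C4BPD, 2028 to 2213 in IAPP and 2087 to 2185 in DMSO. All 5 endothelial markers were dim, with Cldn5 the brightest, and 4 of 9 fibroblast markers were dim, with Fn1 the brightest.

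A gene is called dim here when its highest group mean lay under 7.48 on the log2 scale (178 intensity units), the median of all probe sets on the array. By that line 17 of the 34 genes (50%) were dim, against 6786 of all 18166 genes (37.4%) and 1130 of 1185 olfactory receptor genes, a family best known from the nose. The share of dim genes differed by role. All 5 NF-kB subunits and all 4 IkB proteins were above the line, whereas all 5 cytokines (Il1a, Il1b, Il6, Il18 and Tnf) were under it. Among 7 chemokines, Cxcl10, Cxcl11 and Ccl20 were above it and Ccl2, Cxcl1, Cxcl2 and Cxcl9 were under it. Of 4 receptors and adaptors, Il1r1 and Myd88 were above it and Tlr2 and Tlr4 under it. Of 3 inflammasome parts, the adaptor Pycard was above it, and the sensor Nlrp3 and the protease Casp1 were under it. Icam1 and Nos2 were just above the line, as was Ccl20 with its highest group mean at 7.58 log2, and Vcam1, Cd40, Birc3 and Ptgs2 were under it. Cxcl1 missed it narrowly, with its highest group mean at 7.47 log2, and Nos2 straddled it, with group means of 7.63 log2 in C4BP and 7.41 in DMSO. Probe sets differ in how brightly they bind their transcript, so dim describes the signal of a probe set and not whether a gene is transcribed, and levels of different genes were not ranked against each other.

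**Figure D1:**
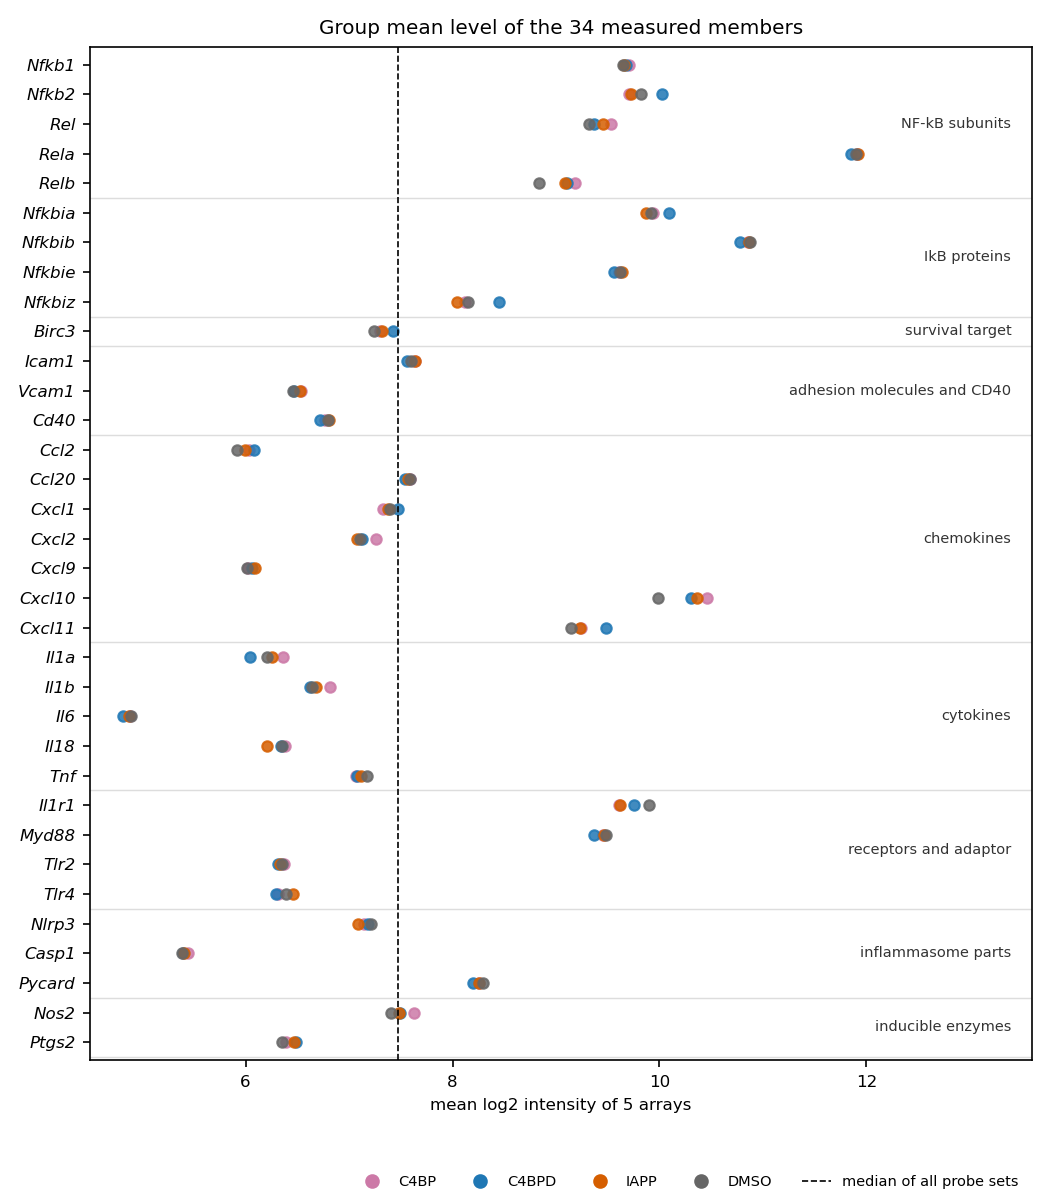
Mean log2 intensity over 5 arrays (horizontal axis) of each of the 34 measured genes, by role, with C4BP in pink, C4BPD in blue, IAPP in orange and DMSO in grey. The dashed line is the median of all probe sets at 7.48 log2, and all 5 NF-kB subunits and 4 IkB proteins lie right of it while all 5 cytokines lie left of it.

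None of the 17 dim genes passed the threshold, a limma p adjusted over all 18166 genes under 0.05, in any of 6 pairwise comparisons of the groups. Between 0 and 3 of them per comparison were at an unadjusted p under 0.05. Over the whole array, 0.781% of the 6786 dim genes and 9.04% of the 11380 others passed in C4BP against DMSO. The 8 genes that passed at least once were Cxcl10, Cxcl11, Relb, Rel, Nfkb2, Nfkbiz, Nfkbia and Il1r1, with 18 of the 204 differences tested, where 0.606% to 5.96% of all genes passed per comparison. Their differences were small, from -0.33 to 0.48 on the log2 scale. Relb, Rel, Cxcl10 and Il1r1 passed in comparisons with DMSO and in no others, Nfkb2 and Nfkbia passed in comparisons between treated groups, and Nfkbiz and Cxcl11 passed in both kinds. This division depends on the threshold and the fit. In C4BPD against DMSO, Nfkb2 and Nfkbia differed by 0.21 and 0.17 log2 (limma adjusted p = 0.156 and 0.218). With the title number as a block, Nfkb2 passed there, and Rel, Cxcl10 and Il1r1 passed in C4BP against C4BPD.

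**Figure D2:**
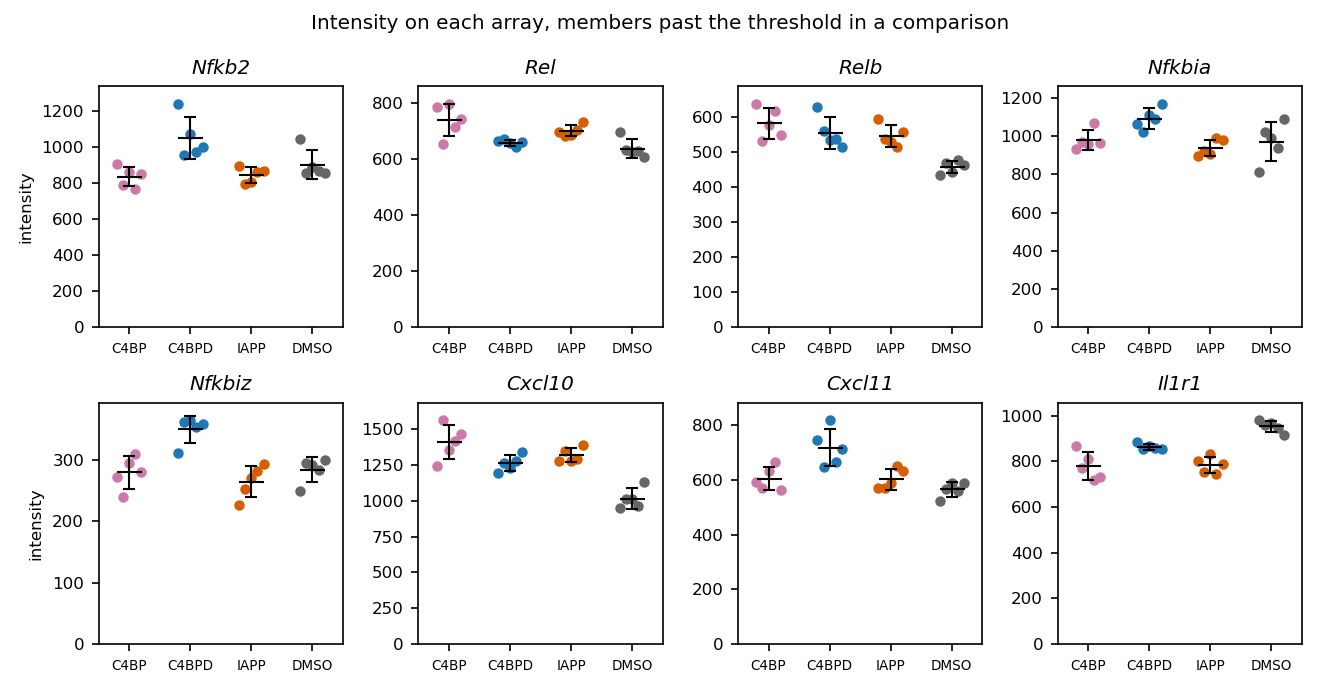
Intensity (vertical axis, from 0) on each of 20 arrays for the 8 genes that passed the threshold in at least 1 comparison. Points are arrays in the order of their title number, and bars are the mean ± SD of 5 arrays per group. The 5 DMSO arrays lie lowest for Cxcl10 and Relb and highest for Il1r1, and the 5 C4BPD arrays lie highest for Nfkbiz.

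Among the NF-kB subunits, Relb was higher in all 3 treated groups than in DMSO, Rel was higher in C4BP than in DMSO, and Nfkb2 was higher in C4BPD than in C4BP or IAPP. Relb encodes the partner of p52 in the second branch. Its intensity was 637, 531, 576, 617 and 548 on the 5 C4BP arrays, 628, 559, 535, 536 and 513 in C4BPD, 593, 536, 527, 513 and 557 in IAPP and 435, 468, 443, 477 and 462 in DMSO. Every array of the treated groups was above every DMSO array, and the treated groups overlapped each other. The difference from DMSO was 0.35 log2 in C4BP (SE 0.058, 1.27-fold, adjusted p = 0.000615), 0.28 in C4BPD (SE 0.058, adjusted p = 0.0137) and 0.25 in IAPP (SE 0.058, adjusted p = 0.0164). Without IAPP array 1, the IAPP difference no longer passed (adjusted p = 0.0534). Leaving out all arrays of a title number ended the IAPP call without number 2, 3 or 5 (0.0621 to 0.0905) and the C4BPD call without number 2 (0.0659) or 3 (0.103).

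Rel encodes c-Rel, a subunit best known from lymphocytes. It measured 787, 656, 797, 716 and 743 in C4BP, 664, 672, 656, 642 and 661 in C4BPD, 697, 684, 687, 704 and 732 in IAPP and 696, 633, 625, 628 and 607 in DMSO. C4BP array 2 was lowest of its group and fell within the DMSO range, below DMSO array 1, so these groups overlapped. Rel rose by 0.21 log2 in C4BP against DMSO (SE 0.048, adjusted p = 0.00869), a call that was lost when only those groups were fitted (adjusted p = 0.0844) or without the arrays numbered 3, 4 or 5 (0.0588 to 0.0981). The IAPP difference from DMSO was 0.14 log2 (adjusted p = 0.165), which passed with array weights (0.0397). Rel also differed by 0.16 log2 in C4BP against C4BPD (adjusted p = 0.0858), which passed without C4BP array 2 (0.0132), after quantile normalization (0.0178), with array weights (0.0379) and with dim genes filtered out (0.0410).

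Nfkb2 encodes p100, which serves both as the precursor of p52 and as an inhibitor that holds RelB. Its intensity was 907, 794, 866, 771 and 855 in C4BP, 1242, 956, 1075, 975 and 1001 in C4BPD, 896, 795, 808, 862 and 871 in IAPP and 1049, 858, 891, 868 and 859 in DMSO. The 5 C4BPD arrays lay above all C4BP and all IAPP arrays and overlapped DMSO through DMSO array 1, which was far above the other DMSO arrays. The difference was -0.32 log2 in C4BP against C4BPD (SE 0.07, adjusted p = 0.0133) and 0.31 in C4BPD against IAPP (SE 0.07, adjusted p = 0.0111). Against DMSO, C4BPD differed by 0.21 log2 (adjusted p = 0.156), which passed without DMSO array 1 (adjusted p = 0.0477) or without the arrays numbered 1 (0.0493). Fitted on C4BP and C4BPD alone, the difference between them did not pass (adjusted p = 0.0707), nor did it without the arrays numbered 2, 3, 4 or 5 (0.0544 to 0.0832), and C4BPD against IAPP did not pass without those numbered 3 (0.0977).

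The other subunits, Nfkb1 (p105 and p50) and Rela (p65), which form the most common NF-kB dimer, passed in no comparison. Nfkb1 ranged from 719.9 to 964 intensity units over the 20 arrays and Rela from 3463 to 4113. Rela averaged 3852 ± 252 in C4BP, 3704 ± 128 in C4BPD, 3877 ± 115 in IAPP and 3812 ± 171 in DMSO (SD, n = 5 each). For Rela the 95% interval of the log2 difference was -0.082 to 0.11 in C4BP against DMSO and -0.07 to 0.12 in IAPP against DMSO, and for Nfkb1 it was -0.086 to 0.20 and -0.13 to 0.15 in the same order. Transcript levels do not show how much of each protein is in the nucleus.

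Of the IkB proteins, Nfkbiz was highest in C4BPD, Nfkbia was higher in C4BPD than in IAPP, and Nfkbib and Nfkbie passed in no comparison. Nfkbiz encodes IkB zeta, a nuclear member of the family that acts with NF-kB on a subset of late targets. It measured 273, 239, 295, 310.1 and 279.8 in C4BP, 311, 362, 364, 353 and 359 in C4BPD, 227, 252, 269.7, 282 and 293 in IAPP and 249, 294, 291, 284 and 299.9 in DMSO. The C4BPD arrays lay above every array of the other groups, which overlapped one another. Nfkbiz differed by -0.33 log2 in C4BP against C4BPD (SE 0.075, adjusted p = 0.0174), by 0.41 in C4BPD against IAPP (SE 0.075, 1.33-fold, adjusted p = 0.0017) and by 0.30 in C4BPD against DMSO (SE 0.075, adjusted p = 0.0382). The difference from DMSO lost its call without any 1 of 9 arrays (C4BPD 2, 3, 4 and 5 and all 5 DMSO arrays, adjusted p = 0.0524 to 0.106) and after arrays were centred on their medians (0.0579) or quantile normalized (0.0888). The difference from C4BP lost it without C4BPD array 3 (0.0508), C4BPD array 5 (0.0509) or C4BP array 2 (0.0579), and with those groups fitted alone (0.0501). Without the arrays numbered 2, 3, 4 or 5, neither of these differences passed (0.0521 to 0.197).

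Nfkbia encodes IkB alpha, the main inhibitor of p65 dimers and itself a classic NF-kB target. It measured 932, 971, 958, 1069 and 964 in C4BP, 1062, 1018, 1107, 1089.8 and 1167 in C4BPD, 893, 921, 907, 989.6 and 978 in IAPP and 814, 1020.5, 987, 938 and 1091 in DMSO. All C4BPD arrays were above all IAPP arrays, and both C4BP and DMSO overlapped C4BPD. The difference was 0.22 log2 in C4BPD against IAPP (SE 0.062, adjusted p = 0.0471). The call was kept without C4BPD 2, C4BP 4, DMSO 1 or DMSO 5 and lost without any 1 of the other 16 arrays (adjusted p = 0.0518 to 0.132), and it was lost after centring (0.0791) or quantile normalization (0.0685) and without the arrays numbered 2, 3, 4 or 5 (0.110 to 0.206). Nfkbib, which encodes IkB beta, ranged from 1647 to 2054 over the 20 arrays and Nfkbie, which encodes IkB epsilon, from 726 to 859. Their widest differences were -0.091 log2 in C4BPD against DMSO for Nfkbib (adjusted p = 0.398) and -0.075 in C4BPD against IAPP for Nfkbie (adjusted p = 0.354).

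The 250 bases before and 50 after the annotated start of Nfkb2 and Nfkbiz, NF-kB family genes that were higher in C4BPD than in C4BP and IAPP, are shown 5′ to 3′ from RefSeq (build GRCr8, both genes on the + strand), Nfkb2 from chr1:255108124-255108423 and Nfkbiz from chr11:58251471-58251770. Capitals mark matches, on either strand, to the kappa B core GGANNTTCC, to the degenerate kappa B consensus or to the interferon response core AAANNGAAA, which may overlap each other.
Nfkb2: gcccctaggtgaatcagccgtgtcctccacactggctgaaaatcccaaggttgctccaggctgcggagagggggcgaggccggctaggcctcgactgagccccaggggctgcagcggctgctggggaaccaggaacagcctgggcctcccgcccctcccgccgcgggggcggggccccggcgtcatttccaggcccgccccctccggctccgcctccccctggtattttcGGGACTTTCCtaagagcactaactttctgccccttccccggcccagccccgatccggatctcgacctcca
Nfkbiz: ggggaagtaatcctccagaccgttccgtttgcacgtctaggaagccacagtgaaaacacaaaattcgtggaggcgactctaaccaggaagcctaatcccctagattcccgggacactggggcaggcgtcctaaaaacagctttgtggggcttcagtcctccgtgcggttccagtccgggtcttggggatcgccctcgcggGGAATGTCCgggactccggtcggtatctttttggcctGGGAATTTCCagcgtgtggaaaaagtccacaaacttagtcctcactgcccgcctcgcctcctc
Nfkb2 holds 1 kappa B core whose first base is at -19, counted from the start with upstream positions negative. Nfkbiz holds 2, at -50 and -12. Relb was not in the promoter table.

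Of 7 chemokines, Cxcl10 rose in all 3 treated groups against DMSO, Cxcl11 was highest in C4BPD, and the other 5 passed in no comparison. Cxcl10, Cxcl11 and Cxcl9 encode ligands of the receptor CXCR3 on activated T cells and are induced by interferon. Cxcl10 measured 1245, 1562, 1359, 1421 and 1468 in C4BP, 1193, 1263, 1229, 1281 and 1344 in C4BPD, 1281, 1345, 1280.2, 1289.6 and 1391 in IAPP and 951, 1013, 1011, 961 and 1134 in DMSO. Every treated array was above all 5 DMSO arrays. Cxcl10 rose by 0.48 log2 in C4BP (SE 0.057, 1.39-fold, adjusted p = 1.23e-05), by 0.32 in C4BPD (SE 0.057, 1.25-fold, adjusted p = 0.00313) and by 0.38 in IAPP (SE 0.057, 1.30-fold, adjusted p = 0.000357). Without the 4 arrays numbered 4, the C4BPD difference did not pass (adjusted p = 0.0630). Among the treated groups Cxcl10 differed by 0.10 log2 in C4BP against IAPP (95% interval -0.023 to 0.21, adjusted p = 0.792) and by 0.16 in C4BP against C4BPD (95% interval 0.04 to 0.28, adjusted p = 0.19).

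Cxcl11 measured 592, 569.6, 631, 666 and 565 in C4BP, 745, 648, 818, 666 and 714 in C4BPD, 569.8, 571, 588, 652 and 634 in IAPP and 524, 567, 590.0, 558 and 589 in DMSO. The C4BPD arrays cleared all DMSO arrays and overlapped C4BP and IAPP at their lower end. It was 1.27-fold higher in C4BPD than in DMSO (0.34 log2, SE 0.063, adjusted p = 0.00401) and differed by 0.25 log2 in C4BPD against IAPP (adjusted p = 0.0213) and by -0.25 in C4BP against C4BPD (adjusted p = 0.0394). The difference from IAPP lost its call without IAPP array 1 (0.0595), IAPP array 2 (0.0646) or C4BPD array 3 (0.0666), and the difference from C4BP lost it without any 1 of 8 arrays (C4BPD 1, 3 and 5, C4BP 1, 2 and 5, and DMSO 2 and 4, adjusted p = 0.0517 to 0.118). Each also lost it with the compared groups fitted alone (0.0586 and 0.158) and without the arrays numbered 1, 2, 3 or 5 (0.0533 to 0.233). The C4BP and IAPP differences from DMSO were 0.095 and 0.091 log2, with 95% intervals of -0.036 to 0.23 and -0.04 to 0.22.

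Cxcl11, Cxcl10 and Cxcl9 are neighbours on chromosome 14, in that order and on the + strand, with no other protein-coding gene of the RefSeq annotation between them. Their promoters are set side by side because Cxcl10 passed against DMSO in all 3 treated groups, Cxcl11 passed against DMSO in C4BPD, and Cxcl9 was dim and passed in none. Cxcl10 is from chr14:15988816-15989115, Cxcl11 from chr14:15973478-15973777 and Cxcl9 from chr14:16006916-16007215 (GRCr8), with the same motifs in capitals.
Cxcl10: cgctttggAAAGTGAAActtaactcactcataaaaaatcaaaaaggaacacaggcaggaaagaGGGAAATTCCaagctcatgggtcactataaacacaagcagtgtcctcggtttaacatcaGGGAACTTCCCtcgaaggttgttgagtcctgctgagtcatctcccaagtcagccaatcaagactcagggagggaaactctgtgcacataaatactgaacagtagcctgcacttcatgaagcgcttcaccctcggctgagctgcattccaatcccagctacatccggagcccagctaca
Cxcl11: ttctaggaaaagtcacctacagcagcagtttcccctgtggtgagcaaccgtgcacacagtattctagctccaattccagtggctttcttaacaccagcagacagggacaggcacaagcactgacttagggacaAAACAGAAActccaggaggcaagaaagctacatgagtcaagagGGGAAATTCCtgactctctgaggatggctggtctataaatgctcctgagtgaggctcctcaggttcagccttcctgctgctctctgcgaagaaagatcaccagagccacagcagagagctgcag
Cxcl9: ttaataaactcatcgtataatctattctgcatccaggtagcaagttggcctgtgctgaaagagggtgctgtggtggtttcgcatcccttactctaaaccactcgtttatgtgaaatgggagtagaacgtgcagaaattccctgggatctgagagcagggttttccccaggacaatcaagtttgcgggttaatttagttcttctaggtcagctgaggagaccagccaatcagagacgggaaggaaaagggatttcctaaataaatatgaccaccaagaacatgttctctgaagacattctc
Cxcl10 holds 2 kappa B cores, at -186 and -127, and an interferon response core at -242. Cxcl11 holds 1 kappa B core at -73 and an interferon response core at -117. None of the motifs is in the Cxcl9 window. Of the 29 genes found in the promoter table, 10 (34.5%) hold the kappa B core, against 1368 of all 33469 promoters (4.09%), and 15 (51.7%) hold the degenerate consensus, against 7.51% of all. The interferon response core is in 7 (24.1%), against 11.8% of all. Cxcl1, Icam1, Il6, Nfkb1 and Tnf hold the kappa B core and passed in no comparison, while Rel and Il1r1 passed and do not hold it. The list holds genes known as NF-kB targets, and a match of letters is not a binding site. The part of these motifs in the differences was not tested.

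The remaining chemokines attract monocytes (Ccl2), cells with the receptor CCR6 (Ccl20) and neutrophils (Cxcl1 and Cxcl2). Cxcl9 ranged from 53.3 to 75.3 intensity units over the 20 arrays, Ccl2 from 51.3 to 80.2, Cxcl1 from 144 to 216, Cxcl2 from 109.8 to 199.6 and Ccl20 from 168 to 207. Ccl20 was the one of these above the dim line, and its 95% interval was -0.11 to 0.11 log2 in C4BP, -0.16 to 0.067 in C4BPD and -0.13 to 0.10 in IAPP, each against DMSO. Cxcl2 spread widely within groups, with 113 to 199.6 in C4BP and 114 to 177 in DMSO, and its interval in C4BP against DMSO was -0.14 to 0.45 log2. Cxcl1 was at 216 on C4BPD array 1, above all others of that group.

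All 5 cytokines were dim and none passed in any comparison, where 0.0589% to 1.03% of all dim genes passed. Il1b, whose product is cut to the active cytokine by caspase 1, measured 108, 129.6, 99.6, 109 and 121 in C4BP, 105, 97.5, 91.1, 103 and 96.9 in C4BPD, 110.0, 106, 105, 102 and 90.8 in IAPP and 95.7, 97.8, 106, 102 and 98.1 in DMSO. C4BP arrays 2 and 5 were the highest of all 20, and the groups overlapped. C4BP array 2 was also the highest of all 20 for other dim genes, which are given with Nos2 below. The difference was 0.18 log2 in C4BP against DMSO (95% interval 0.043 to 0.31, adjusted p = 0.13) and 0.20 in C4BP against C4BPD (adjusted p = 0.138). Both passed without C4BP array 3 (adjusted p = 0.0405 and 0.0400).

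Il1a, the other interleukin 1 agonist, measured 87.3, 106, 63.6, 78.0 and 82.0 in C4BP, 59.0, 77.1, 64.9, 72.6 and 58.9 in C4BPD, 81.8, 79.2, 65.2, 82.7 and 75.5 in IAPP and 77.3, 72.0, 74.8, 73.4 and 73.1 in DMSO. C4BP was spread over a wider range than the other groups, from its array 3 to its array 2. The difference in C4BP against C4BPD was 0.32 log2 (SE 0.1, adjusted p = 0.134), and it passed without C4BP array 3 (adjusted p = 0.0164). In IAPP against DMSO the 95% intervals were -0.17 to 0.26 log2 for Il1a, -0.10 to 0.17 for Il1b, -0.18 to 0.13 for Il6, -0.31 to 0.035 for Il18 and -0.24 to 0.11 for Tnf. Tnf, the cytokine that signals through TNF receptors, ranged from 119.7 to 165 over the 20 arrays, Il18, another caspase 1 substrate, from 68.2 to 94.5, and Il6 from 25.3 to 36.7.

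Il1r1, the signalling receptor of interleukin 1, was lower in C4BP and in IAPP than in DMSO, and no other receptor or adaptor passed. It measured 869, 770.4, 812, 720.2 and 732 in C4BP, 886, 856, 865, 858 and 856 in C4BPD, 804, 753, 832, 746 and 787 in IAPP and 979.9, 959, 971, 948 and 918 in DMSO. All 5 DMSO arrays were above every treated array, and the C4BPD arrays were above every IAPP array. Il1r1 fell to 0.82 of the DMSO level in C4BP (-0.29 log2, SE 0.046, adjusted p = 0.000288) and to 0.82 of it in IAPP (-0.28 log2, SE 0.046, adjusted p = 0.000823). The C4BPD difference from DMSO was -0.14 log2 (95% interval -0.24 to -0.048, adjusted p = 0.138), which passed after quantile normalization (0.0426), and C4BPD against IAPP was 0.14 log2 (adjusted p = 0.0843). With the title number as a block the C4BPD against IAPP difference passed (adjusted p = 0.0181), as it did without C4BP array 1 (0.0426) and with dim genes filtered out (0.0434), and C4BP against C4BPD also passed without that array (0.0174, against 0.105 with it).

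The Il1r1 window, from chr9:50034133-50034432 on the + strand of GRCr8, is shown as the promoter of the gene that fell; its capitals mark a match to the degenerate kappa B consensus at -135, and it holds neither core motif.
Il1r1: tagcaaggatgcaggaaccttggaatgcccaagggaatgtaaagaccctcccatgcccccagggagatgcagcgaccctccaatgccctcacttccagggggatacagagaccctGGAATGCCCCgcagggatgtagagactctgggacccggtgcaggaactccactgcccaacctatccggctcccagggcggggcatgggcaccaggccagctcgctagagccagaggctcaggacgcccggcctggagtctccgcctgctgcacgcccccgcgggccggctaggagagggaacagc

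Myd88, the adaptor that Il1r1 shares with Toll-like receptors, ranged from 624 to 777 over the 20 arrays, and its widest difference was -0.12 log2 in C4BPD against DMSO (adjusted p = 0.212). Tlr2, a receptor for bacterial lipoproteins that also binds amyloids, ranged from 68.9 to 99.7 and Tlr4, the receptor for lipopolysaccharide, from 71.1 to 96.7. Both Toll-like receptor genes were dim. The widest Tlr4 difference was -0.16 log2 in C4BPD against IAPP (adjusted p = 0.129).

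None of the inflammasome parts passed in any comparison, and in each of the 6 comparisons 0 of the 3 were at an unadjusted p under 0.05. Of all genes, 0.606% to 5.96% passed per comparison, and 1440 to 3308 of 18166 were at an unadjusted p under 0.05. A count of 0 of 3 is thus near the background. Nlrp3, the sensor, measured 156, 129.7, 151, 137 and 134 in C4BP, 159, 138, 151, 145 and 137 in C4BPD, 144, 118, 145, 137 and 136 in IAPP and 162, 152, 149, 157 and 127 in DMSO. IAPP array 2 was the lowest of all 20, and the groups overlapped. The 95% interval of the Nlrp3 difference was -0.28 to 0.015 log2 in IAPP against DMSO, -0.17 to 0.12 in C4BPD against DMSO and -0.22 to 0.072 in C4BP against DMSO. Pycard, the adaptor also called ASC, averaged 307 ± 12.5 in C4BP, 294 ± 23.7 in C4BPD, 307 ± 20.1 in IAPP and 315 ± 28.3 in DMSO (SD, n = 5 each), and its interval in IAPP against DMSO was -0.16 to 0.10 log2. Casp1, the protease, ranged from 36.7 to 49.0 over the 20 arrays, with an interval of -0.11 to 0.16 log2 in IAPP against DMSO.

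Nos2 and Ptgs2 encode inducible nitric oxide synthase and cyclooxygenase 2, textbook targets of interleukin 1 in beta cells. Nos2 measured 181, 243, 163, 183 and 229 in C4BP, 176, 185, 181, 174 and 185 in C4BPD, 174, 202, 174, 182 and 164 in IAPP and 177, 171, 178, 156 and 169 in DMSO. C4BP arrays 2 and 5 were the highest of all 20, while C4BP array 3 lay inside the DMSO range. C4BP array 2 was also the highest of all 20 for the dim genes Il1a, Tlr2, Vcam1 and Ccl2. The summed intensity of the 17 dim genes ran from 1541 to 1834 in C4BP and 1623 to 1701 in C4BPD. It ran from 1581 to 1709 in IAPP and 1619 to 1720 in DMSO. The part of such array differences in the Nos2 and Il1b values was not tested. The difference in C4BP against DMSO was 0.22 log2 (95% interval 0.042 to 0.39, adjusted p = 0.164), which passed without C4BP array 3 (adjusted p = 0.0340). Ptgs2 was dim, ranged from 73.1 to 96.2 and had its widest difference in C4BPD against DMSO (0.14 log2, adjusted p = 0.382).

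Birc3, which encodes the survival factor cIAP2, was dim and measured 169, 148, 166, 162 and 143 in C4BP, 171, 164, 177, 167 and 177 in C4BPD, 161, 155, 169, 155 and 162 in IAPP and 150.3, 141, 156, 157 and 153 in DMSO. The C4BPD arrays were above all DMSO arrays, by 0.18 log2 (95% interval 0.079 to 0.28, adjusted p = 0.0607), and the difference passed without C4BP array 5 (0.0393) and with array weights (0.0243). Icam1 and Vcam1, adhesion molecules that bind leukocytes, ranged from 165 to 223 and from 77.3 to 107, and Cd40, a TNF receptor family member, from 98.1 to 125. Of these 3, Icam1 was above the dim line, with 95% intervals of -0.13 to 0.19 log2 in C4BP, -0.20 to 0.12 in C4BPD and -0.12 to 0.20 in IAPP, each against DMSO.

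Counted by comparison, C4BP against DMSO addresses the joint treatment, and 4 of 34 genes passed: Cxcl10, Relb and Rel were higher and Il1r1 lower, where 5.96% of all genes passed. In C4BPD against DMSO 4 of 34 passed, all higher (Cxcl10, Cxcl11, Relb and Nfkbiz), against 1.93% of all genes. For IAPP against DMSO the count was 3 of 34, with Cxcl10 and Relb higher and Il1r1 lower, against 3.38% of all genes. These comparisons share the 5 DMSO arrays, so a DMSO value that is off moves each of them alike. The medians of the 34 log2 differences were 0.018 in C4BP, 0.00089 in C4BPD and 0.014 in IAPP, and those of all genes were 0.0047, -0.0090 and 0.0018 in the same order. Restricted to genes that are not dim, 4 of 17, 4 of 17 and 3 of 17 passed in that order, against 9.04%, 2.87% and 5.11% of all genes that are not dim.

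C4BP against IAPP asks what C4BP changes when IAPP is present, and limma called none of the 34 genes, with 0.606% of all genes passing. At an unadjusted p under 0.05 were 2 of the 34 and 1440 of all genes. The 2 were Tlr4 (-0.15 log2, 95% interval -0.27 to -0.026) and Il1b (0.14 log2, 95% interval 0.0042 to 0.27), both dim. With the title number as a block, 0 of the 34 passed, against 1.94% of all genes. For the genes that had differed from DMSO, the intervals of C4BP against IAPP were -0.03 to 0.21 log2 for Relb and -0.11 to 0.087 for Il1r1. C4BP against C4BPD asks what IAPP changes when C4BP is present. There 3 of 34 passed, all lower in C4BP (Nfkb2, Nfkbiz and Cxcl11), against 2.37% of all genes, and none passed when those groups were fitted alone, with adjusted p of 0.0501 to 0.158.

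In C4BPD against IAPP 4 of 34 passed, all higher in C4BPD (Nfkbiz, Nfkb2, Cxcl11 and Nfkbia), against 5.46% of all genes. With the title number as a block 5 of 34 passed, the added gene being Il1r1, against 10.5% of all genes. The interaction, the C4BP against C4BPD difference less the IAPP against DMSO difference, asks whether IAPP acts differently with C4BP, and none of the 34 passed by limma, with 0.0495% of all genes passing. At an unadjusted p under 0.05 were 7 of the 34 and 688 of all 18166 genes. The 7 were Cxcl11 (-0.34 log2, 95% interval -0.52 to -0.15, adjusted p = 0.47), Birc3 (-0.21), Cxcl10 (-0.22), Ptgs2 (-0.21), Nfkb2 (-0.23), Relb (-0.18) and Nfkbiz (-0.23). An F test across the 4 groups called 7 of 34, namely Cxcl10, Il1r1, Relb, Nfkbiz, Cxcl11, Nfkb2 and Rel, against 7.85% of all genes. Rel lost this call without C4BP array 1, C4BP array 3 or DMSO array 5 (adjusted p = 0.0544 to 0.0573), with all probe sets tested (0.0568) and without number 3, 4 or 5 (0.153 to 0.187). Nfkb2 lost it without number 2, 3, 4 or 5 (0.0526 to 0.109) and Cxcl11 without number 1 (0.0623).

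**Figure D3:**
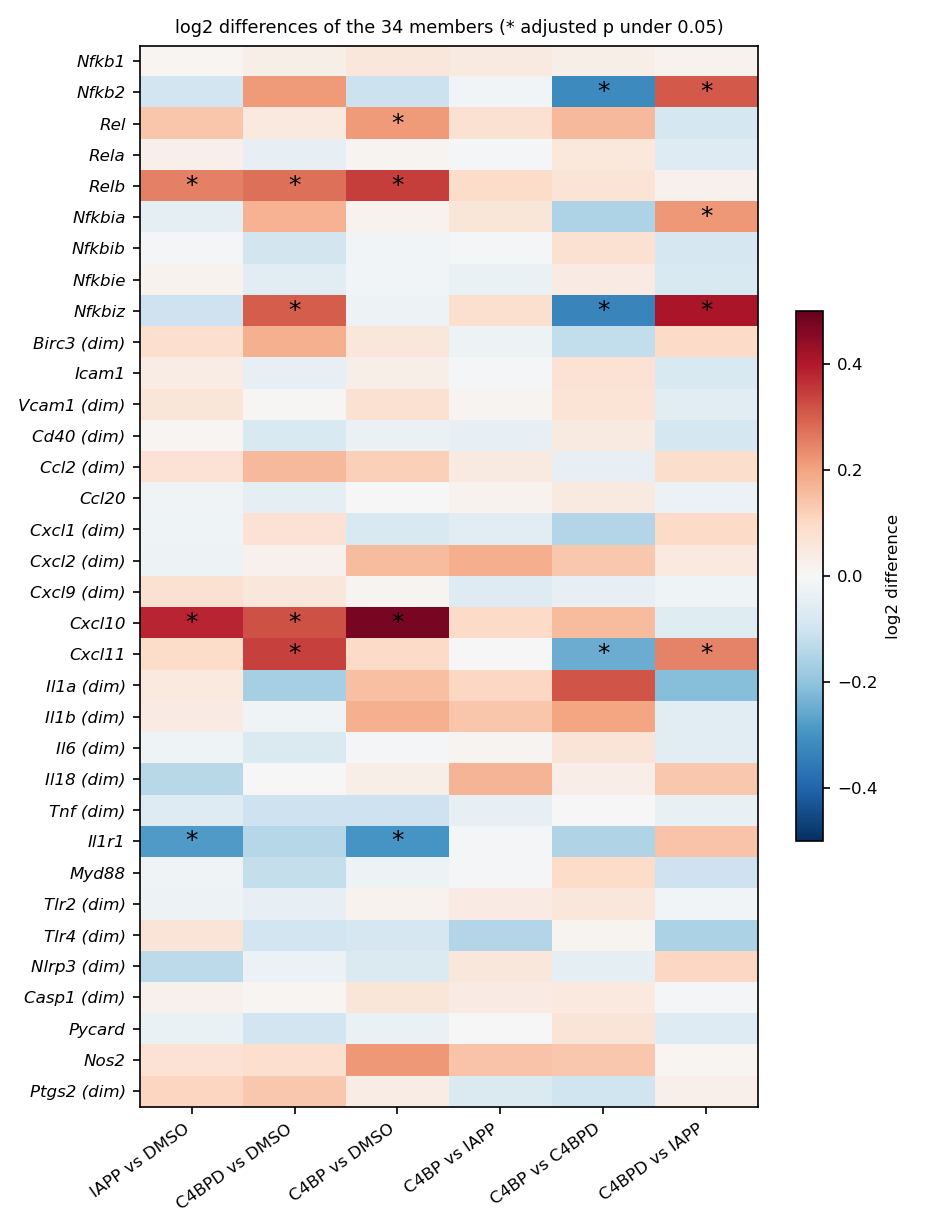
log2 difference (colour, red for higher in the group named first) of each of the 34 genes (rows, dim genes marked) in 6 pairwise comparisons (columns). Stars mark limma adjusted p under 0.05: 4 in C4BP against DMSO, 4 in C4BPD against DMSO, 3 in IAPP against DMSO, 3 in C4BP against C4BPD, 4 in C4BPD against IAPP and none in C4BP against IAPP.

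Over the 20 arrays, log2 levels of Cxcl10 and Il1r1 ran opposite to each other (r = -0.89, and -0.62 after group means were removed), and those of Nfkbiz and Cxcl11 ran together (r = 0.76, and 0.54 after group means were removed). Within groups Cxcl10 also ran opposite to Rel (r = -0.63), Nfkb2 (-0.55) and Relb (-0.48), though not to Nfkbiz (0.17). With Relb it had r = 0.65 over the 20 arrays before group means were removed. Cxcl10 and its neighbour Cxcl11 had r = 0.27, and -0.029 within groups. Among all genes the profiles most like that of Cxcl10 were Asns (r = 0.92, 0.49 within groups), Vps35l (0.91, 0.72) and Mt1f (0.90, 0.15). Those most like Il1r1 were Iqgap2 (0.95, 0.74), Sik1 (0.95, 0.82) and Syt10 (0.93, 0.73). Relb was most like Fam84b (0.91, 0.67), Gpt2 (0.88, 0.60) and Mars1 (0.87, 0.54), and Cxcl11 most like Kdsr (0.84, 0.85). These correlations share arrays and group differences and are descriptions over 20 arrays.

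Other genes of the same pathways were read from lists alongside the 34. Unlike those of the 34, their calls were not examined under alternative fits or with arrays left out. Of 37 further NF-kB signalling genes, 2 passed in C4BP against DMSO, 1 in IAPP against DMSO and 1 in C4BPD against IAPP, with none in the other comparisons (1 to 5 at an unadjusted p under 0.05). These counts are near or under the shares of all genes in those comparisons, 5.96%, 3.38% and 5.46%, and the genes are named as the ones that passed. Ripk2, a kinase downstream of NOD receptors, rose in C4BP against DMSO: 1027, 1061, 1118, 1208 and 1072 in C4BP and 818, 899.8, 911, 986 and 892 in DMSO (0.28 log2, adjusted p = 0.0114), and these groups did not overlap. Tradd, an adaptor of the TNF receptor and dim here, averaged 137 ± 9.73 in C4BP, 141 ± 8.45 in IAPP and 165 ± 8.87 in DMSO (SD, n = 5 each). It fell by 0.27 log2 in C4BP (adjusted p = 0.00531) and by 0.24 in IAPP (adjusted p = 0.0237). Tnfrsf1a, TNF receptor 1, averaged 2466 ± 107 in C4BPD and 2772 ± 82.3 in IAPP, where it differed by -0.17 log2 (adjusted p = 0.00688). The median log2 difference of the 37 genes was 0.037 in C4BP against DMSO, beside 0.0047 for all genes.

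Of 22 further chemokines 13 were dim, and Cxcl16 was the one that passed in any comparison. It was 1 of 22 in IAPP against DMSO, C4BPD against IAPP and C4BP against C4BPD, where 3.38%, 5.46% and 2.37% of all genes passed. Cxcl16, the ligand of CXCR6, measured 1406, 1500.0, 1459.9, 1552 and 1454 in C4BP, 1257, 1233, 1336, 1224 and 1314 in C4BPD, 1481, 1621, 1543, 1862 and 1679 in IAPP and 1260.0, 1383, 1371, 1419 and 1422 in DMSO. All IAPP arrays were above all C4BPD and DMSO arrays, and all C4BP arrays were above all C4BPD arrays. It rose by 0.25 log2 in IAPP against DMSO (adjusted p = 0.00788) and differed by -0.36 in C4BPD against IAPP (adjusted p = 0.00021) and by 0.21 in C4BP against C4BPD (adjusted p = 0.0351). C4BPD was thus below IAPP for Cxcl16 and above it for Cxcl11. Among 32 interferon response genes, 2 passed in IAPP against DMSO, both higher, the receptor chain Ifngr1 (0.18 log2, adjusted p = 0.0264) and the transcription factor Irf2 (0.24, adjusted p = 0.0417). In C4BPD against IAPP, 2 passed, the immunoproteasome subunit Psmb9 (0.30 log2, adjusted p = 0.00535) and Stat2 (0.16, adjusted p = 0.0188), both higher in C4BPD. Of all genes, 3.38% and 5.46% passed in these comparisons, so 2 of 32 is near the background. The median of the 32 was 0.057 log2 in IAPP against DMSO and -0.038 in C4BPD against IAPP, beside 0.0018 and -0.014 for all genes.

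Of 17 further inflammasome and pyroptosis genes, 8 were dim. Casp4, the inflammatory caspase that senses lipopolysaccharide inside cells, was dim and measured 63.5, 63.2, 60.9, 63.4 and 62.3 in C4BP, 63.0, 71.5, 60.1, 59.2 and 63.7 in C4BPD, 71.9, 71.3, 63.3, 74.8 and 70.0 in IAPP and 54.3, 61.3, 54.8, 53.1 and 47.2 in DMSO. All IAPP arrays were above all DMSO arrays. The difference from DMSO was 0.38 log2 in IAPP (adjusted p = 0.000811), 0.22 in C4BP (adjusted p = 0.0395) and 0.23 in C4BPD, which did not pass (adjusted p = 0.057). Txnip, a thioredoxin inhibitor known to bind NLRP3, measured 2547, 2680.5, 2529, 2645 and 2599.7 in C4BP, 3041, 3198, 2545, 3074 and 3141 in C4BPD, 3095, 3485, 3251, 3808 and 3307 in IAPP and 2667, 3137, 2835, 3379 and 3974 in DMSO. It was lower on every C4BP array than on every IAPP array (-0.38 log2, adjusted p = 0.0426), and DMSO spread widely. No other gene of that list passed in any comparison. The count was thus 1 of 17 in IAPP against DMSO, C4BP against DMSO and C4BP against IAPP, where 3.38%, 5.96% and 0.606% of all genes passed.

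**Figure D4:**
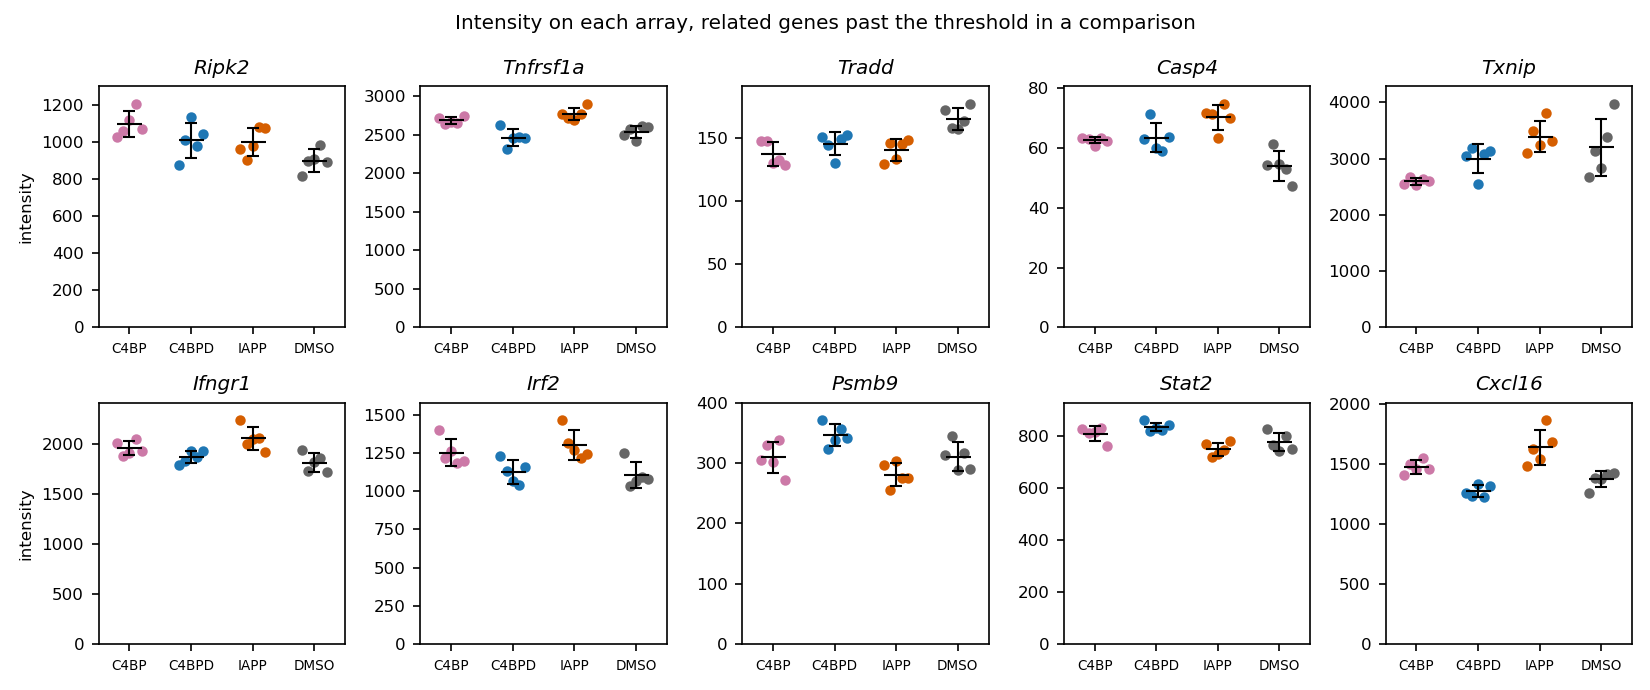
Intensity (vertical axis, from 0) on each of 20 arrays for the 10 related genes that passed in at least 1 comparison. Points are arrays in title order, and bars are the mean ± SD of 5 arrays per group. Cxcl16 and Casp4 are highest in IAPP, Tradd is highest in DMSO and Txnip is lowest in C4BP.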

How the data were processed

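Total RNA of 20 INS-1 cell samples was measured on Affymetrix Rat Gene 2.0 arrays, and their number limits the precision. The authors deposited 1 table of intensity values per probe set on a linear scale, made with Affymetrix Expression Console per the submitters' processing notes; the normalization is not given in the sources used here. Of 36495 probe sets that are not controls, 18511 carry 1 gene symbol in the platform annotation, 575 several and 17409 none. The brightest of a gene's probe sets stood for it, which gave 18166 genes. Values were taken to log2, with no further scaling, and fitted as 4 group means in limma 3.58.1 under R 4.3.3 (eBayes moderation, 16 degrees of freedom left for the residuals), groups being the title words. The tests were 6 pairwise comparisons, their interaction and an F test, two-sided, with Benjamini-Hochberg adjustment over all genes at 0.05. The script was tested on simulated data.

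Every measured gene of the list is named, with at most 4 genes of each related list that passed, the brightest 3 beta cell markers and the brightest marker of each other list. The genes and lists were chosen with earlier results of these data known. Promoters came from RefSeq (GRCr8), and both strands were searched with a Python 3.11.15 script. Alternatives were centring, quantile normalization, a block for the title number, the compared groups alone, array weights, a filter on dim genes, the mean of probe sets, all probe sets, groups from the treatment field, and leaving out each array or title number. Same-numbered arrays deviated together in all 5 pairs for C4BPD and IAPP (r = 0.152 to 0.305 over genes), and in 2 to 4 of 5 pairs above 0.1 in the other comparisons, so the blocked result stands beside C4BPD against IAPP.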

Additional observations from a re-analysis of the deposited data

Results flagged for a closer look

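Each of the 136 sets of 5 arrays (34 genes in 4 groups) was searched for a highest or lowest array whose gap to its nearest neighbour exceeded 0.71 of the group's range, a limit that chance passes in about 1 of 20 groups. There were 10 such values, 4 of them on arrays numbered 1, 1 on number 2, 3 on number 4 and 2 on number 5. Nfkb2 was at 1049 on DMSO array 1, with the other DMSO arrays at 858 to 891, and its C4BPD against DMSO difference passed without that array (adjusted p = 0.0477). Nfkbia was at 1069 on C4BP array 4, with the others at 932 to 971. Nfkbie was at 842.6 on DMSO array 4, with the others at 759 to 779. Nfkbiz was lowest at 311.3 on C4BPD array 1, with the others at 353 to 364. Cxcl1, which is dim, was at 216.3 on C4BPD array 1, with the others at 166 to 173. Cxcl9 was lowest at 53.29 on DMSO array 5, with the others at 65.5 to 69.9. Il6 was at 36.72 on IAPP array 2, with the others at 26.3 to 28.5, and at 32.02 on DMSO array 5, with the others at 28.8 to 29.5. Casp1 was at 45.68 on C4BPD array 4, with the others at 40.8 to 41.9. Pycard was at 335.8 on C4BPD array 1, with the others at 279.5 to 291. No cause was tested for any of these values.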

How the results depend on the processing

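Of 18 calls, 7 passed under every alternative except the treatment field groups: Cxcl10 and Il1r1 in C4BP and in IAPP against DMSO, Relb in C4BP against DMSO, Cxcl11 in C4BPD against DMSO and Nfkbiz in C4BPD against IAPP. With groups from the treatment field, the count of the 34 genes was 0 in every comparison and in the F test. There 11 of the called differences changed sign, and none passed in the new direction (limma adjusted p = 0.995 or more). Against DMSO, Cxcl10 went to -0.11 log2 in C4BP, -0.037 in C4BPD and -0.071 in IAPP. Il1r1 went to 0.027 in C4BP and 0.023 in IAPP, Relb to -0.046 in C4BP and -0.0058 in C4BPD, and Rel to -0.086 in C4BP. In C4BPD against IAPP, Cxcl11 went to -0.038, Nfkb2 to -0.12 and Nfkbia to -0.0047. With the title number as a replicate block the count was 7 in C4BPD against DMSO and 6 in C4BP against C4BPD, where 3 of 5 same-numbered pairs were above 0.1. Of all genes, 4.39% and 5.27% passed there with the block, against 1.93% and 2.37% without it. The block added Birc3 (adjusted p = 0.0150), Il1r1 (0.0302) and Nfkb2 (0.0100) in C4BPD against DMSO, and Cxcl10 (0.0248), Il1r1 (0.0211) and Rel (0.0464) in C4BP against C4BPD, and it ended no call. With the compared groups alone the count was 0 in C4BP against C4BPD, where 1.23% of all genes passed. With all probe sets tested, which adjusts over more tests, it was 2 in C4BPD against IAPP, where 2.26% of all probe sets passed. Array weights ended the Cxcl11 call in C4BP against C4BPD (adjusted p = 0.158). The cause of these changes was not tested.

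Leaving out 1 array gave counts of 4 to 6 in C4BP against DMSO, 3 to 5 in C4BPD against DMSO, 2 to 3 in IAPP against DMSO, 0 in C4BP against IAPP, 1 to 5 in C4BP against C4BPD, 2 to 4 in C4BPD against IAPP, 0 for the interaction and 6 to 8 for the F test. Leaving out the 4 arrays of a title number gave 3 to 4, 2 to 5, 2 to 3, 0, 0 to 3, 1 to 3, 0 and 5 to 6 in the same order.

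Over all 18166 genes, the block gave 1884 calls in C4BP against DMSO, against 1082 without it, 797 against 351 in C4BPD against DMSO, 1133 against 614 in IAPP against DMSO, 352 against 110 in C4BP against IAPP, 958 against 431 in C4BP against C4BPD, 1908 against 992 in C4BPD against IAPP, 18 against 9 for the interaction and 2604 against 1426 for the F test. Fitting the compared groups alone gave 663, 208, 33 and 223 calls in C4BP against DMSO, C4BPD against DMSO, C4BP against IAPP and C4BP against C4BPD. Array weights gave 644 in C4BPD against DMSO and 1529 in C4BPD against IAPP, the filter on dim genes gave 205 in C4BP against IAPP, and testing all probe sets gave 70 there, 226 in C4BPD against DMSO and 0 for the interaction. Centring moved the split of higher and lower calls to 163 and 201 in C4BPD against DMSO, against 212 and 139 without it, to 531 and 445 in C4BPD against IAPP, against 662 and 330, and to 51 and 52 in C4BP against IAPP, against 68 and 42. Whether low signal hid differences in the 17 dim genes was not tested.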
